A study of Homo sapiens with 22 samples.

Results

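Cluster 1 of the untreated WM989 cells held 2049 of the 12531 cells profiled, and every one of them carried the drug-susceptible state label. Its members were taken by cluster number from the labels that the authors deposited; the authors made the clusters from the same UMI counts. WM989 is a human melanoma line carrying a BRAF mutation, and the stock used, A6-G3, had passed through 2 rounds of growth from a single cell, so all cells trace to 1 clone. The cells received no drug. They carried a lentiviral library of GFP lineage barcodes, were sorted either as a mixed population or as EGFR- and NGFR-high (primed) cells, grew through a few doublings and were loaded into 8 wells of droplet-based 3′ RNA sequencing, 4 wells in each of the replicates r1 and r2. 9688 cells were non-primed and fell into cluster 1 and 7 other clusters, numbered 0, 3, 4, 5, 6, 7 and 10. Clusters 2, 8 and 9 were primed. The later sections also use the drug-susceptible cells of 8 WM989 libraries (Control, PI3Ki, TGFB1 or TGFBRi, that is a control, a PI3K inhibitor, the ligand TGFB1 or an inhibitor of its receptor) and ATAC-seq peaks of sorted, untreated WM989 cells. The treatment labels of these 8 libraries also carry the word Mix or Primed, as in MixControl and PrimedControl. Which word belongs to r1 and which to r2 of these libraries was not settled.

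S phase is the part of the cell cycle in which DNA is copied once. Copying demands new histones, the proteins that DNA winds around, and the replication-dependent histone genes supply them: core histones H2A, H2B, H3 and H4 form the nucleosome, while the H1 linker histones bind the DNA between nucleosomes. Messenger RNAs of these genes end in a conserved stem-loop instead of a poly(A) tail, are made in S phase and are degraded when replication stops. The chemistry used here captures RNA by its poly(A), so the histone values below are shares of captured UMIs (unique molecular identifiers, 1 per captured molecule) and not shares of cellular RNA. A sum or share over several histone genes below describes captured UMIs only and ranks no gene by its RNA.

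Among the 6 genes that mark the cluster, HIST1H1B, HIST1H1A and HIST1H4C are histone genes, so the DNA around H1 genes is shown first. H1 genes are known for an element called the H1 box, read here as AAACACA, that lies upstream of a CCAAT box and a TATA box (read as TATAAA). The lines give the 150 bases before the annotated start of the 5 H1 genes with at least 20 CPM in cluster 1 (a gene's UMIs per 1000000 UMIs of the summed cells). They come from RefSeq on GRCh38.p14 and are read 5′ to 3′ on the gene's strand, and capitals mark every match to 1 of those 3 motifs on either strand.
HIST1H1A (chr6:26017788-26017937, minus strand): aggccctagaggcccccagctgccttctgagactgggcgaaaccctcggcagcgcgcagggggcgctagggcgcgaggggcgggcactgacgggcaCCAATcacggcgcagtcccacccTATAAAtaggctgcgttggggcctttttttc
HIST1H1B (chr6:27867589-27867738, minus strand): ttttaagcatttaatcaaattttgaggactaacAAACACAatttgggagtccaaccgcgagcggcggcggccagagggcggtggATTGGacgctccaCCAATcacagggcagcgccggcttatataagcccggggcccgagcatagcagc
HIST1H1C (chr6:26056471-26056620, minus strand): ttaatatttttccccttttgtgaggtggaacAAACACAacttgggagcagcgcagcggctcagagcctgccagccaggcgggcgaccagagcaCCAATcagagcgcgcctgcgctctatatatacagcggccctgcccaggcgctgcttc
HIST1H1D (chr6:26234988-26235137, minus strand): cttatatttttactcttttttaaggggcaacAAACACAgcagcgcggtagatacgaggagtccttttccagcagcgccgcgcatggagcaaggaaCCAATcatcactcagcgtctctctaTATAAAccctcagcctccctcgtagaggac
HIST1H1E (chr6:26156179-26156328, plus strand): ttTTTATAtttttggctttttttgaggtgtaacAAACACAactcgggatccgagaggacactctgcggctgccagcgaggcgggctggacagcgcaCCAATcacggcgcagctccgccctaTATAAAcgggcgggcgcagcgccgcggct

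The 4 genes HIST1H1B, HIST1H1C, HIST1H1D and HIST1H1E carried the H1 box letters at nearly the same place, with the first base 117 to 119 bases before the start. In HIST1H1A the letters stood on the other strand, 183 bases before the start and outside the stretch printed. All 5 had CCAAT between 53 and 57 bases before the start, and HIST1H1A, HIST1H1D and HIST1H1E had TATAAA about 30 bases before it. Searched over 300 bases (250 before to 50 after the start) on both strands, AAACACA occurred in each of these 5 H1 genes, in 3 of 54 core histone genes, in 4 of 64 other leading genes (over 2-fold higher in cluster 1), and in 5.66% of 34943 promoters. The table held a promoter for 54 of 64 core histone genes and 64 of 79 other leading genes. CCAAT was in 44 of 54 core histone genes, in 44 of 64 other leading genes and in 34.6% of all promoters. For TATAAA the counts were 38 of 54 and 6 of 64, beside 11.6% of all promoters. These are matches of letters and were not tested for use in the cells.

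**Figure D1:**
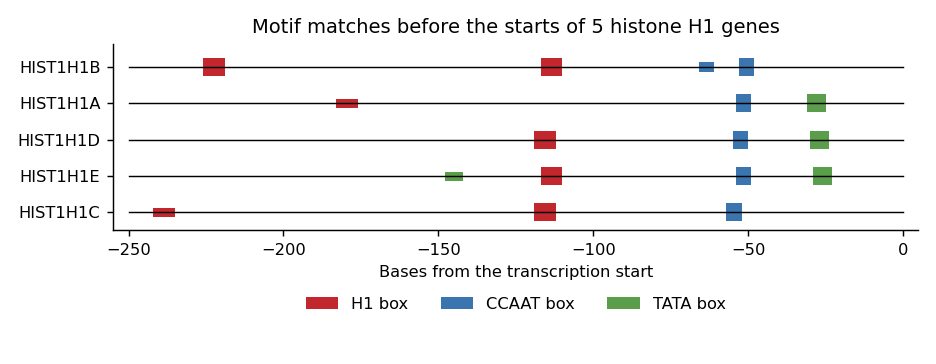
Matches to the H1 box, the CCAAT box and the TATA box in the 250 bases before the start of 5 H1 genes, with the distance from the start in bases on the x axis. Tall blocks are matches on the gene's strand and short blocks matches on the other strand; the H1 box of 4 genes lines up at 117 to 119 bases before the start and CCAAT of all 5 at 53 to 57.

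The other end of these messages was shared more widely. The search asked for a perfect stem of 6 bases starting with GG, around a loop of 4 starting with T. These fixed letters make the pattern rarer than stems and loops of that size in general. Within 150 bases after the stop codon, the stem-loop stood in 63 of the 65 replication-dependent histone genes whose symbol could be matched to the annotation. The stem-loop also stood in 24 of 20363 other protein-coding genes (0.118%). Histone genes whose symbol found no match were not taken out of these others, so the 24 may include some. It is shown because it is the element that replaces the poly(A) tail, with the stem in capitals.
HIST1H1B (chr6:27866797-27866812, minus strand), and with the same letters HIST1H1C, HIST1H1D, HIST1H1E and HIST3H2A: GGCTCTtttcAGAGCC
HIST2H2AC (chr1:149887391-149887406, plus strand): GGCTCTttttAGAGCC
HIST1H1A (chr6:26017037-26017052, minus strand): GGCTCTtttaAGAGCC
HIST1H4C also held the stem-loop, 58 bases after its stop codon. Carrying the element did not separate histone genes by their level in cluster 1: HIST3H2A has the same 16 bases as HIST1H1B, and the text below gives opposite ratios for these genes.

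Cluster 1 made up 21.1% of the non-primed cells (95% exact Clopper-Pearson interval 20.3 to 21.98). The share was 19.0% in r1 and 24.5% in r2, and over the 8 wells it ran from 15.7% through a median of 21.96% to 28.4%. Wells differed far more in their primed cells, which were 6.85% to 79.7% of a well, than in the share of cluster 1 among the non-primed. The r1 wells held 43, 139, 262 and 673 cells of the cluster and the r2 wells 13, 38, 458 and 423, so 3 wells held fewer than 50. The wells are loads of 1 deposited sample, in which each culture was spread over more than 1 well, and the clusters were made from the same genes that are compared below. For that reason values within this experiment are descriptions without p-values, and r1 and r2 show only how well a value repeats. Intervals cover counting error only.

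Well totals lay between 35882876 and 177318308 UMIs. Cells of cluster 1 held 131432864 UMIs in sum, with a median of 57481 UMIs and 7171 genes per cell, beside 50552 UMIs in cluster 0, 43689 in cluster 6 and 64334.5 in cluster 7. In the wells with fewer cells depth was greater, and the median per cell of cluster 1 ran from 50399 to 160541 UMIs. 19 cell barcodes occurred in 2 wells, which touched 7 cells of cluster 1, and the counts of genes below were the same without those cells. A lineage barcode, meaning any barcode UMI, was found in 95.0% of the cells of cluster 1 (interval 94.0 to 95.9), inside the 93.2% to 97.7% of the other clusters. This is detection and not an assigned lineage. The study, which filtered barcodes further to assign lineages, reports a smaller part of the cells of this experiment as barcoded.

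The phase calls in the deposited labels placed 1375 cells of cluster 1 in S (67.1%, interval 65.0 to 69.1), 673 in G2M (32.8%) and 1 in G1. By well the S share was 61.5% to 74.4%. Cluster 0, the other cluster rich in S calls, had 78.2% S and 18.7% G1, while clusters 6 and 7 had no S call at all and were 99.7% and 100% G2M. By these calls most cells of the cluster were in S phase, and a G2M call was given to about 1 in 3 of its cells.

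The 6 markers were all higher in cluster 1 than in the other 7 non-primed clusters pooled, in each of the 8 wells. HIST1H1B, an H1 linker histone, stood at 268, 283, 327 and 344 CPM in the r1 wells and at 195, 237, 327 and 329 CPM in the r2 wells, against 31.6 to 52.4 CPM in the pooled other clusters of the same wells. The lowest well of cluster 1 was thus well above the highest well of the others, and the summed level was 320 against 39.6 CPM, a ratio of 8.08 (9.63 in r1 and 6.31 in r2). HIST1H1A, another linker histone, stood at 52.1, 68.9, 49.5 and 50.9 CPM in r1 and at 35.0, 30.3, 60.4 and 55.2 CPM in r2, and the others at 3.82 to 10.8 CPM. Its 2 lowest wells were those with 13 and 38 cells, and its summed ratio was 7.18.

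HIST1H4C, 1 of many genes for histone H4, gave 1212, 1170, 1595 and 1434 CPM in the r1 wells and 1411, 1125, 1448 and 1718 CPM in the r2 wells. No well of the pooled others passed 365 CPM, and the ratio was 5.22. Single clusters went higher: cluster 7 had 949 CPM in well 5, cluster 0 had 440 CPM in well 8, and cluster 3 had 549 CPM summed over wells. ESCO2, which acetylates cohesin so that sister chromatids stay joined, ran from 88.3 to 111 CPM over the wells of cluster 1 and from 18.2 to 40.04 CPM in the others (ratio 3.8). CDC45, a part of the helicase that opens DNA at the fork, ran from 59.6 to 86.9 CPM against 17.0 to 31.7 CPM (ratio 3.21). EXO1, a repair exonuclease, ran from 22.5 to 40.5 CPM against 5.17 to 15.8 CPM (ratio 3.24), and its 4 r2 wells were all above its 4 r1 wells. For ESCO2 and EXO1 the ratio was nearer 1 in r2 (2.8 and 2.45) than in r1 (4.85 and 4.18), since the other clusters were higher in r2. Among clusters 0, 6 and 7 taken singly, the lowest ratio of ESCO2 was 1.84, against cluster 7. Against cluster 0, the ratio of CDC45 was 2.05 and that of EXO1 was 1.82 (1.36 in r2).

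**Figure D2:**
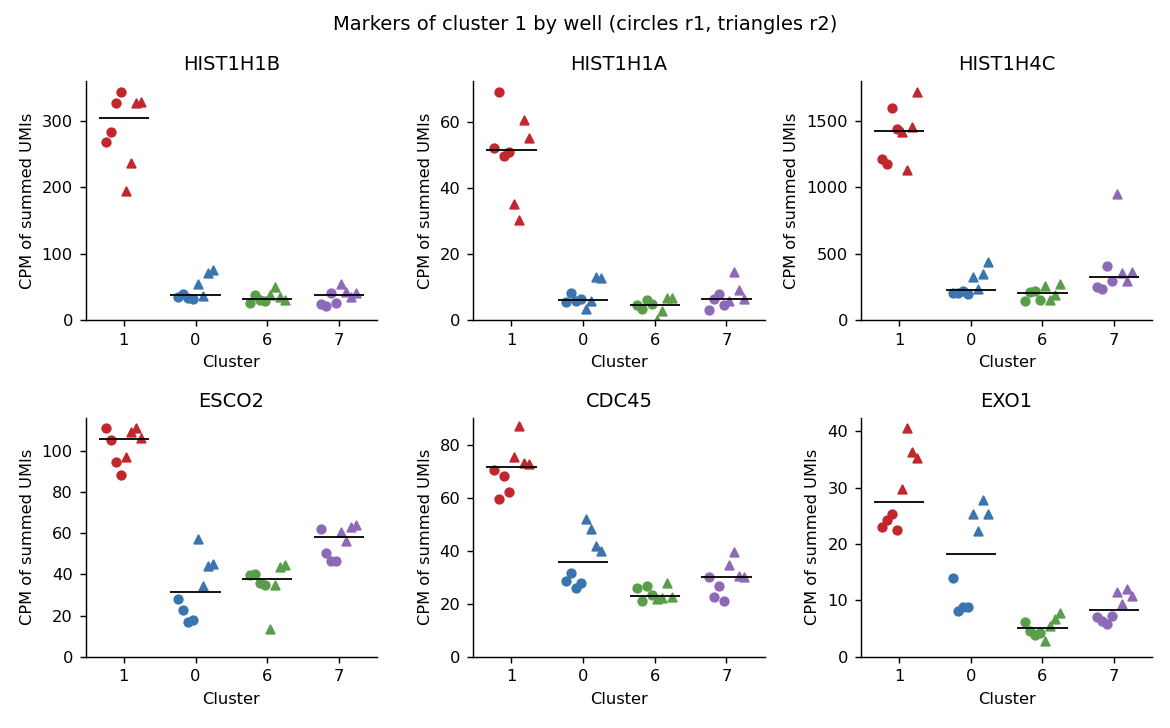
CPM of the 6 markers (y axis, summed UMIs of a well) in clusters 1, 0, 6 and 7, with 1 point per well, circles for r1, triangles for r2 and a bar at the median of the wells. The points of cluster 1 lie above those of the 3 other clusters for HIST1H1B, HIST1H1A, HIST1H4C, ESCO2 and CDC45; for EXO1 they overlap the r2 wells of cluster 0.

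At equal depth a UMI of each marker was found in more cells of cluster 1 than of the compared clusters, with much overlap for some. After thinning every cell to 10000 UMIs, which all cells exceeded, HIST1H1B had at least 1 UMI in 89.995% of the cells of cluster 1, beside 32.6% of cluster 0, 35.2% of cluster 3, 23.6% of cluster 6 and 25.2% of cluster 7. Of the clusters for which it was computed (1, 0, 3, 4, 6, 7 and 10), cluster 10 had the lowest share, 9.77%, and there 10.1% of the cells were called S (median depths 57481 and 45488.5 UMIs before thinning). In the same order of clusters, ESCO2 had a UMI in 61.4% against 21.9%, 23.4%, 31.4% and 41.1%, and HIST1H1A in 33.5% against 7.42%, 11.7%, 4.80% and 5.79%. HIST1H4C had one in 99.8% of cluster 1 but also in 84.1% of cluster 0 and 85.5% of cluster 3. CDC45 had one in 48.5% of cluster 1 and 26.4% of cluster 0, and EXO1 in 24.8% and 13.7%. Unthinned, HIST1H1B was seen in 99.7% of cluster 1 and in 73.1% of cluster 0.

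Across all genes the cluster differed from the other non-primed cells by far more high than low genes. Of 5754 genes with at least 20 CPM on either side, 86 had a CPM ratio over 2 (1.49%) and 7 a ratio under 0.5 (0.122%), and the median log2 ratio of all those genes was 0.04. Taken alone, r1 had 128 and r2 had 39 genes over 2, and scaled as UMIs per cell the count was 153. The values just inside and outside these limits lay close together. RECQL4 at 2.004 and BRCA1 at 2.01 were inside the upper limit, with RBL1 at 1.99 outside. SOX4 was at 0.47 inside the lower limit, with AL118516.1 at 0.51 outside. After HIST1H1B and HIST1H1A the highest ratios were those of HIST2H2AC (a histone H2A gene, 110 against 17.2 CPM, ratio 6.42), HIST1H1D (477 against 84.4 CPM, ratio 5.65), HIST1H4C, HIST1H1E (129 against 29.5 CPM, ratio 4.36), SPC25, ESCO2, RRM2 and RAD54L. Histone genes thus took the first 6 places. SPC25, a kinetochore subunit that ties chromosomes to the spindle, was at 52.8 against 13.6 CPM (ratio 3.88). RAD54L, which acts in repair by homologous recombination, was at 20.2 against 6.09 CPM (ratio 3.32).

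The 7 low genes had mixed roles, and their number rested on the cells taken: r2 alone had 4 genes under 0.5, and S-called cells alone had 2. MYC, a transcription factor that drives growth, was at 81.8 CPM in cluster 1 and 201 CPM in the pooled others (ratio 0.41), and its wells ran from 53.8 to 110 CPM against 144 to 264 CPM without overlap. SOX4, a developmental transcription factor, ran from 22.1 to 34.4 CPM against 60.8 to 79.1 CPM, again without overlap. CBLB, a ubiquitin ligase, was the lowest by ratio at 0.40, with wells from 6.59 to 16.7 CPM against 18.1 to 58.1 CPM. HIST1H2AC was the only histone gene in this group (11.8 against 27.2 CPM, ratio 0.44), and with S-called cells alone on both sides its direction turned (ratio 1.07). MGP, CEBPD and MMP1 had ratios of 0.42, 0.43 and 0.45, but their wells overlapped, and MMP1, a collagenase that was at 2085 CPM in the primed cluster 9, ranged from 4.46 to 70.6 CPM over the wells of cluster 1.

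The histone genes were next taken as a family. Of 70 replication-dependent genes in the table, 5 had no UMI in cluster 1 and 9 reached 20 CPM on either side. Summed over the 70, cluster 1 held 3017 CPM (Poisson interval 3007 to 3026) and the pooled others 695 CPM. Cluster 3 had 1046 CPM, clusters 0, 6 and 7 had 670, 655 and 673 CPM, and the primed cluster 9 had 1960 CPM. The 4 wells of r1 summed to 2670, 2616, 3210 and 3088 CPM and the 4 of r2 to 2535, 2424, 2949 and 3245 CPM, while the others stayed between 588 and 771 CPM. The ratio was 3.59 in the well with 13 cells and at most 4.72 in the rest. Per cell, the 10th, 50th and 90th percentiles were 1823, 2959 and 4444 CPM in cluster 1. The 10th percentile of cluster 1 was passed by 2.31% of the cells of cluster 0, 18.0% of cluster 3, 5.07% of cluster 7 and 51.9% of the primed cluster 9.

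**Figure D3:**
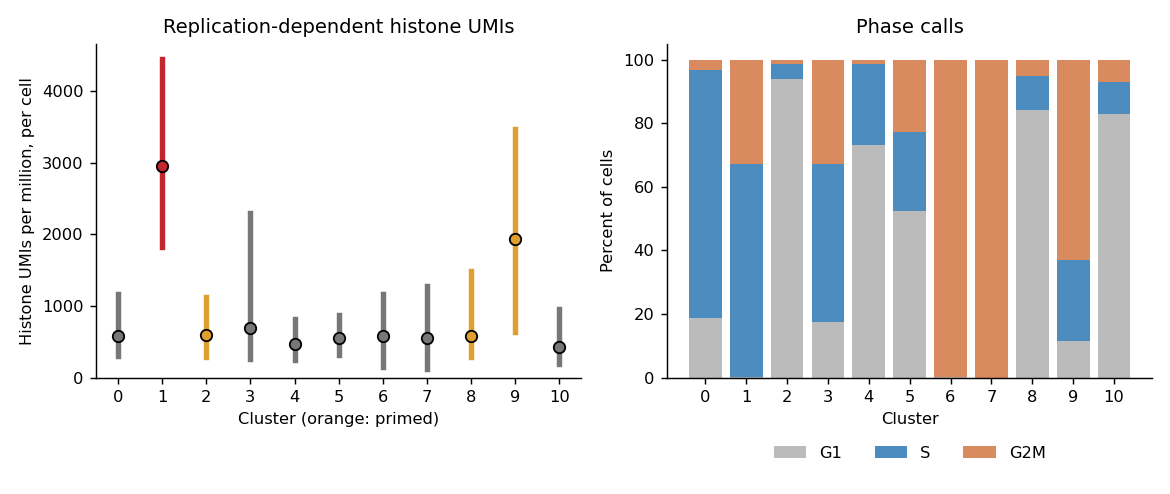
Left, replication-dependent histone CPM of single cells (y axis) by cluster, with the median as a dot and a bar from the 10th to the 90th percentile of cells, cluster 1 in red and primed clusters in orange; the median of cluster 1 is 2959 and the next highest is that of primed cluster 9. Right, the percent of cells called G1, S and G2M in each cluster, with 67.1% S in cluster 1 and 78.2% S in cluster 0.

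By family the order depended on the measure. Linker histones summed to 1227 CPM in cluster 1 and 240 CPM in the others (ratio of sums 5.12), and H4 genes to 1491 and 292 CPM (5.11), nearly all of it from HIST1H4C. H3 genes summed to 32.6 and 11.01 CPM (2.96), H2A genes to 196 and 102 CPM (1.93) and H2B genes to 70.0 and 50.3 CPM (1.39). By the median log2 ratio of the genes in a family, most of them with few UMIs, H1 was again first at 2.31, followed by H2A at 1.82, H3 at 1.56, H4 at 0.95 and H2B at 0.90, so H4 was high by its sum and low by its median. The H2A sum holds HIST1H2AC and HIST3H2A, which were lower in cluster 1. As shares of the captured histone UMIs of the cluster, H1 genes gave 40.7% and H4 genes 49.4%. Of the 64 histone genes with a ratio, 54 were above 1, as were 60.6% of all genes at 20 CPM or more. Of all 70, 39 were above 2 and 5 under 0.5, and most of the genes behind these counts had few UMIs. The 39 include HIST3H3, which had no UMI in the others, and the 5 include HIST1H2AA, which had none in cluster 1. Of the 9 that reached 20 CPM, 7 were above 2 and 1 was under 0.5, where 1.49% and 0.122% of all genes at that level were. HIST1H1C, the remaining leading linker histone, was at 247 against 78.5 CPM (ratio 3.15). HIST3H2A, an H2A gene with the same stem-loop, was at 26.5 against 44.8 CPM (ratio 0.59), lower than the others in 8 of 8 wells.

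Genes of variant histones, most of which are also made outside S phase, moved less. The 10 variant histone genes had a median log2 ratio of 0.25, and only H2AFX passed 2-fold (117 against 50.8 CPM, ratio 2.3). H2AFX, whose protein is phosphorylated at DNA breaks, lacked overlap between its wells (95.5 to 146 CPM against 38.5 to 66.6 CPM). H2AFZ was at 2833 against 2409 CPM (ratio 1.18), and H2AFJ was at 238 against 246 CPM. H2AFX is known to make a stem-loop message as well as a poly(A) one.

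Cluster 0 had the highest share of S calls, and the difference of cluster 1 from it lay in histones and mitotic genes more than in the start of replication. 103 of 5794 genes had a ratio over 2 against cluster 0 (1.78%) and 4 a ratio under 0.5 (0.0690%). TOP2A, the topoisomerase that untangles copied DNA, was at 187 CPM in cluster 1 and 23.5 CPM in cluster 0 (ratio 7.94), with wells of 140 to 242 CPM against 11.6 to 39.7 CPM. CDCA3, which helps start mitosis, was at 51.9 against 7.26 CPM (ratio 7.15). Of 22 mitotic genes 19 reached 20 CPM on either side and 15 of these were over 2-fold higher, with a median log2 ratio of 1.76 over the 22. Of 12 origin-licensing genes, which load the helicase on DNA before S phase, none of the 11 that reached 20 CPM passed 2-fold, and the median of the 12 was 0.11. The phase gene lists of the software Seurat, taken as those behind the calls, hold all but 5 of these 12 and all but 5 of the 22. Where the calls used these lists, clusters that differ in calls were bound in part to differ in these genes. MCM6, a helicase subunit, was lower than in cluster 0 in 8 of 8 wells (67.9 against 81.2 CPM, ratio 0.84), and MCM4 was at 200 against 182 CPM, with a ratio of 1.24 in r1 and 0.95 in r2. CCNE2, a cyclin of the G1 to S step, was at 20.5 against 18.5 CPM and higher in 4 of 8 wells. The replicates pointed in opposite directions for CCNE2 as well, with 1.56 in r1 and 0.81 in r2.

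The genes under 0.5 against cluster 0 were MYC (81.8 against 193 CPM, ratio 0.42), CITED1 (34.1 against 74.9 CPM, ratio 0.46), CDCA7 (37.9 against 79.0 CPM, ratio 0.48) and TMEM121 (10.2 against 20.5 CPM, ratio 0.50). CITED1 is a transcriptional coregulator and CDCA7 a MYC-responsive cell cycle gene. All 4 were lower in 8 of 8 wells. CCND1, cyclin D1, was at 335 against 560 CPM (ratio 0.60) and was likewise lower in every well.

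In clusters 6 and 7, called G2M, most mitotic genes were higher than in cluster 1, while histones were again higher in cluster 1, with a median log2 ratio of 0.97 against cluster 6 and 0.99 against cluster 7 and 7 genes over 2-fold against each. Against cluster 6, 104 of 5984 genes were over 2-fold higher (1.74%) and 78 under 0.5 (1.30%). Against cluster 7, 57 of 5885 were over 2-fold higher (0.969%) and 71 under 0.5 (1.21%). Scaled as UMIs per cell in place of CPM, the counts against cluster 6 became 238 and 31, and cells of cluster 1 had the larger median depth. Here licensing genes separated the clusters, with 8 of the 11 that reached 20 CPM over 2-fold against each, and medians of 1.40 and 1.59 on the log2 scale. The phase lists hold CCNE2 and most licensing and mitotic genes. Where the calls used these lists, part of this order against G2M-called clusters was fixed beforehand. CCNE2 had the highest ratio of the genes tested, 12.2 against cluster 6 (1.68 CPM) and 17.7 against cluster 7 (1.16 CPM), followed by histones such as HIST1H1B (10.2 and 9.40). FBXO5, an inhibitor of the ligase that ends mitosis, was at 58.0 against 7.59 CPM in cluster 6 (ratio 7.65).

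Most mitotic genes were lower in cluster 1 than in both. Of the 21 that reached 20 CPM, 11 were under 0.5 against cluster 6 (1.30% of all genes were) and 16 against cluster 7 (1.21% of all genes). The medians of the 22 were -0.96 and -1.22. Higher than in cluster 6 were CDK1, the kinase that starts mitosis (ratio 4.48), TOP2A (1.962), AURKB, a kinase of chromosome segregation (1.7), and UBE2C, which helps degrade mitotic cyclins (1.57), and none of the 22 was higher than in cluster 7. CCNB1, the mitotic cyclin, was at 57.9 CPM against 356 and 250 CPM (ratios 0.16 and 0.23), and PLK1, a mitotic kinase, at 43.6 against 156 and 200 CPM (ratios 0.28 and 0.22). NEK2, a centrosome kinase, and KIF20A, a motor of cell division, had ratios of 0.24 and 0.21 against cluster 7. Against cluster 6 the early response genes EGR1 and EGR3 and the regulator CITED2 were also low (each with a ratio of 0.17), as was MYC at 0.23. TOP2A was at 95.3 CPM in cluster 6 and 440 CPM in cluster 7, on either side of cluster 1.

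**Figure D4:**
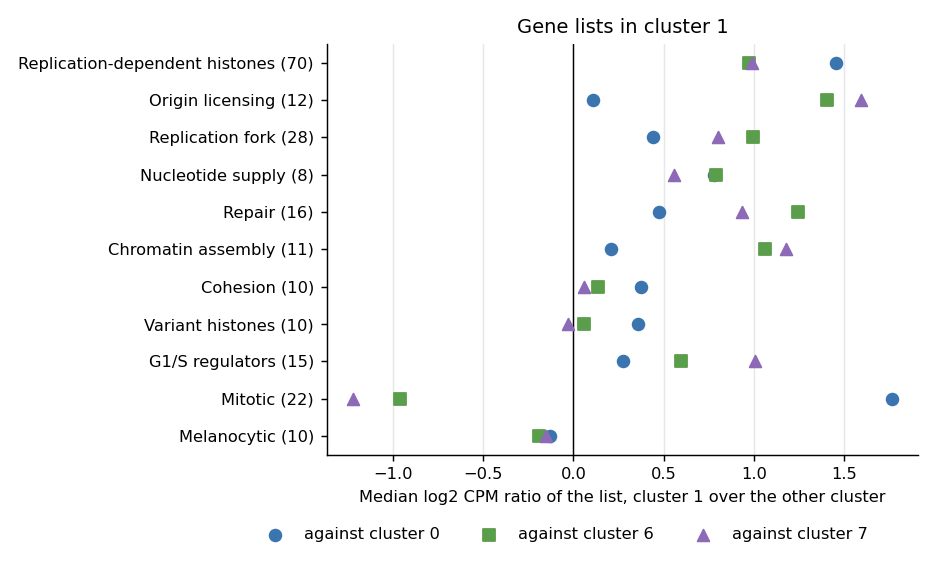
Median log2 CPM ratio of 11 gene lists (number of genes in brackets) in cluster 1 over cluster 0 (circles), cluster 6 (squares) and cluster 7 (triangles). Mitotic genes lie at 1.76 against cluster 0 and at -0.96 and -1.22 against clusters 6 and 7, while licensing genes lie at 0.11 against cluster 0 and at 1.40 and 1.59 against the others.

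Most of the machinery that copies DNA was above the pooled other clusters. Of 28 genes of the replication fork, 28 had a ratio above 1, as did 60.6% of all genes tested. 24 of the 28 reached 20 CPM, 12 of these were over 2, where 1.49% of all genes were, and the median log2 ratio of the 28 was 0.96. Against cluster 0 alone, 1 of 24 was over 2, where 1.78% of all genes were, and the median was 0.44. PCNA, the sliding clamp, was at 279 against 119 CPM (ratio 2.34), with wells of 245 to 343 CPM against 90.03 to 196 CPM. TIPIN, which stabilises stalled forks, was the lowest of the list at 1.29. All 8 genes of nucleotide supply were above 1 and 4 were over 2, while 2 were over 2 against cluster 0 alone. RRM2, the subunit of ribonucleotide reductase that limits its activity, was at 166 against 46.4 CPM (ratio 3.59) and above clusters 0, 6 and 7 in each of the 8 wells, though the primed cluster 9 had more (236 CPM), while CAD, of pyrimidine synthesis, was at 54.8 against 40.5 CPM (ratio 1.35).

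Repair genes showed a similar median, 0.96, with 16 of 16 above 1 and 6 over 2 among the 14 that reached 20 CPM. Of all genes tested, 60.6% were above 1 and 1.49% over 2. Against cluster 0 alone the median of the repair genes was 0.48, with 13 of 16 above 1 and 3 of 14 over 2. There 51.3% of all genes were above 1 and 1.78% over 2. BRCA1 was at 110 against 54.6 CPM. MSH6, of mismatch repair, was the lowest, at 80.2 against 77.3 CPM. Of the 10 cohesin genes, ESCO2 and its partner in cohesion CDCA5 passed 2-fold, and RAD21, the cohesin ring subunit, was at 284 against 218 CPM (ratio 1.3). Chromatin assembly genes had a median of 0.67, from ASF1B, a histone chaperone (49.2 against 20.6 CPM, ratio 2.39), to NPAT, the coactivator of histone genes (33.4 against 26.2 CPM, ratio 1.28).

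Identity markers changed little. The 10 melanocytic genes had a median log2 ratio of -0.08 to the pooled others, and none of the 9 that passed 20 CPM was beyond 2-fold. PMEL, a melanosome protein, was at 1999 against 2207 CPM, MITF, the regulator of the lineage, at 346 against 303 CPM, and SLC45A2, a melanosome transporter, at 61.2 against 73.8 CPM. The 12 primed markers summed to 1233 CPM, against 1078 CPM in the others and 6772, 5440 and 6248 CPM in the primed clusters 2, 8 and 9, and the sum was higher than in the others in 6 of 8 wells. VGF, a secreted neuropeptide precursor, gave most of it (884 against 707 CPM), a difference larger than that of the whole sum, so the remaining genes together were lower in cluster 1. The median log2 ratio of the list was -0.09, and 5 of the 12 genes were above 1, where 60.6% of all genes tested were. FOSL1 was at 84.3 against 52.03 CPM and SERPINE2 at 140 against 182 CPM, and the sort marker EGFR was at 4.34 against 3.07 CPM. Markers of leukocytes and endothelial cells summed to 1.12 and 0.56 CPM, with 3 of 7 and 1 of 4 genes at 0. Keratin 10 gave nearly all of the 137 CPM of the keratinocyte list (127 CPM in the others), in which 2 of 4 genes were at 0. The stress list was at 182 against 196 CPM.

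Within cluster 1, the histone sum was 3177 CPM in the cells called G2M and 2936 CPM in those called S (ratio 1.08), while the S-called cells of cluster 0 had 716 CPM. The clusters were made from these counts, which fixes part of the likeness of cells inside cluster 1: the G2M-called clusters 6 and 7 had the 655 and 673 CPM given above. HIST1H1B was at 309 and 326 CPM and HIST1H4C at 1591 and 1410 CPM. Genes of the start of replication went down between the same cells: CCNE2 was at 3.25 in G2M-called and 29.3 CPM in S-called cells, MCM6 at 31.2 and 86.5 CPM, PCNA at 164 and 337 CPM, and the licensing sum at 747 and 1289 CPM. Mitotic genes went up, from 2058 to 3557 CPM in sum, with TOP2A at 269 against 145 CPM and CCNB1 at 96.7 against 38.2 CPM. Seurat's phase lists, taken as those behind the calls, hold many of these genes (PCNA, MCM6, CCNE2 and TOP2A among them). Where the calls used these lists, part of the genes' order was fixed beforehand. Median depth was 59788 UMIs in G2M-called and 56445 UMIs in S-called cells.

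Whether the genes that led cluster 1 differ by phase in cells that played no part in the clustering was asked in the 8 treated and control libraries, where drug-susceptible cells were summed by library and phase call and S was compared with G1 in each library. Of the 86 genes with a ratio over 2, 29 are in Seurat's S and G2M phase lists and were set aside. These lists were taken as the ones behind the phase calls, which the study's methods do not name. The other 57 were all tested and all 57 were higher in S, where 26.6% of the 14212 genes tested were (edgeR quasi-likelihood test with library as a block, two-sided, Benjamini-Hochberg adjusted p under 0.05). Their log2 fold changes ran from 1.17 to 3.91 with a median of 1.87, against a median of -0.02 for all genes. The count was 57 whichever library was left out. Cluster 1 held 1 cell called G1, whereas 73.3% of cluster 4 and 82.8% of cluster 10, both among the pooled clusters, were called G1. Genes chosen by that contrast were thus likely beforehand to be higher in S than in G1. The 26.6% is not matched to the 57 genes by level.

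HIST1H1B stood at 36.9 CPM in G1 and 325 CPM in S in the Control r1 library and at 42.5 and 345 CPM in Control r2. With PI3Ki it went from 24.7 to 280 CPM and from 22.5 to 229 CPM, with TGFB1 from 28.2 to 298 CPM and from 28.1 to 306 CPM, and with TGFBRi from 38.0 to 320 CPM and from 39.9 to 275 CPM. S and G1 did not overlap, and the fold change was 3.17 ± 0.05 on the log2 scale (SE, edgeR adjusted p = 6.7e-21). ESCO2 ran from 4.28 to 7.52 CPM in G1 and from 54.6 to 68.4 CPM in S (log2 3.41 ± 0.07, edgeR adjusted p = 1.2e-19). HIST1H1A had the highest value of the 57, 3.91 ± 0.08, and HIST1H4C was at 2.14 ± 0.06, from 223 to 411 CPM in G1 and from 1158 to 1592 CPM in S. SPC25 reached 3.20 ± 0.10.

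Of the 70 histone genes 54 passed the filter on low counts there. Of these, 49 were higher in S (26.6% of all genes were) and 3 were lower (28.4% of all genes were). The lower ones were HIST3H2A (-0.96), HIST1H2BD (-0.98) and HIST2H2BE (-0.56), and all 3 were also below the pooled other clusters in cluster 1 (ratios 0.59, 0.27 and 0.54), HIST1H2BD and HIST2H2BE at under 5 CPM on either side. Of the 7 genes under 0.5 in cluster 1, 6 were lower in S (28.4% of all genes were), MYC by -0.63, SOX4 by -0.79 and CBLB by -1.09 on the log2 scale. The calls of the other lower genes, CEBPD, MGP and MMP1, were lost without the library block. HIST1H2AC was not called (-0.06, edgeR adjusted p = 0.59), and S was higher in 4 of 8 libraries.

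**Figure D5:**
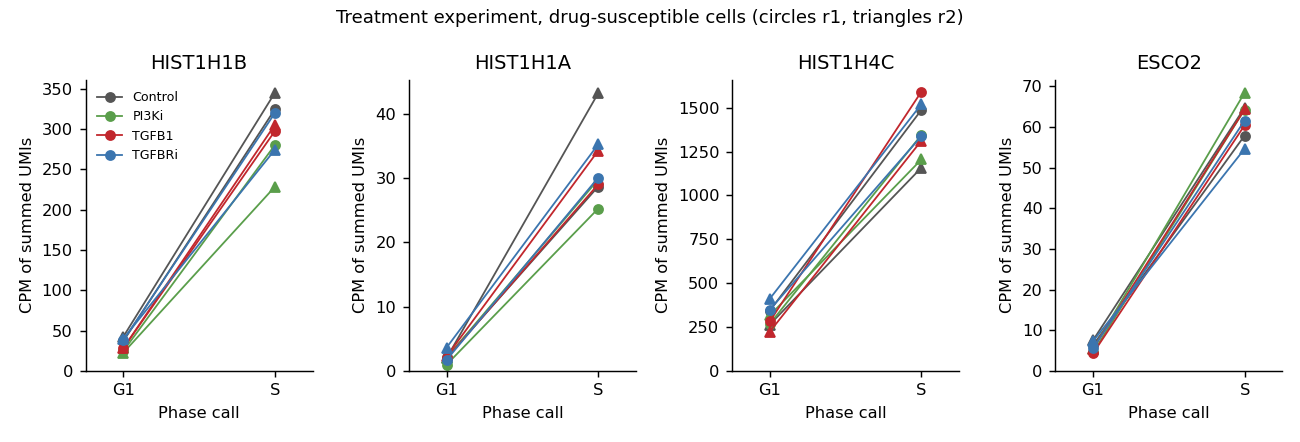
CPM of 4 markers (y axis) in drug-susceptible cells called G1 and S, joined by library (8 libraries, colour for the agent, circles r1 and triangles r2). Each line rises, HIST1H1B from 22.5 to 42.5 CPM in G1 to 229 to 345 CPM in S.

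Between S and G2M the same 57 genes were split, with 32 higher in S (32.9% of all 14273 genes tested were) and 21 lower (31.3% of all genes). The 5 H1 genes and HIST1H4C differed by far less than between S and G1: log2 S against G2M was 0.07 for HIST1H1B, 0.11 for HIST1H1D, 0.19 for HIST1H1A, -0.16 for HIST1H1C, -0.18 for HIST1H1E and -0.16 for HIST1H4C. Among H4 genes with few UMIs the values ran from -0.60 (HIST1H4H) to 0.43 (HIST1H4I). The kinetochore gene SPC25 was lower in S (-0.79).

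The starts of the leading genes lay in accessible chromatin. In the 3 ATAC-seq libraries of Mix cells all 86 genes had a peak over the start in 3 of 3 libraries, where 60.5% to 61.1% of 20046 protein-coding starts had one. The 86 genes had passed a minimum of 20 CPM, whereas the 20046 starts were taken whatever their expression. No share for expressed genes alone was computed, so the 2 shares do not set the leading genes apart. With only the top 50000 peaks of each library, 77 of the 86 had a peak in all 3 libraries and 5 in none. Mix is the name in the labels, whereas the study's methods list, beside the marker-high sorts, cells negative for EGFR and NGFR, and neither source names a sort by cell cycle. Median fold enrichment over the leading starts was 49.5 to 50.8. HIST1H1B had 35.4, 38.2 and 33.9-fold enrichment in the 3 libraries, HIST1H1A 13.4, 15.6 and 11.1, and HIST2H2AC 106, 110 and 96.3. A value belongs to the peak, which can lie over several neighbouring starts: HIST1H2AL had the values of HIST1H1B, and HIST2H2AB and HIST2H2BE those of HIST2H2AC, so counts of starts are not counts of separate peaks. The order of these peaks did not follow the order of the ratios, since HIST1H1A was low among them. Of 65 histone genes matched, 52 had a peak in all 3 libraries, among them all 8 with at least 20 CPM in cluster 1 and 44 of the 57 others. The low genes had a peak in 6 of 7 cases in all 3 libraries, and MMP1 had one in 2. Peaks were called in each library and cannot be assigned to cells of cluster 1, because ATAC-seq was run on bulk cells.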

How the data were processed

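Droplet RNA counts of untreated WM989 cells (1 sample, 8 wells) and of 8 WM989 libraries, and ATAC-seq peaks of 3 Mix and 9 marker-high libraries, were used; WM983B cells were not. Single-cell files hold raw UMI counts deposited by the authors (Cell Ranger, hg38), with the percent of mitochondrial counts, cluster, phase and state labels, made after filtering cells on genes and mitochondrial reads (the study integrated replicates where it saw batch effects and used SCTransform otherwise), and per-library peak lists (Bowtie2 2.3.4.1, SAMtools 1.1, MACS2 2.1.1.20160309, hg38), whose columns hold fold enrichment and −log10 q. No doublet caller was run here.

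Counts were summed by cluster and well and divided by their total (CPM). Genes needed 20 CPM on either side, and limits were a ratio of 2 and 0.5. Cells of the 8 libraries (1104 to 2500 and 20567517 to 49024688 UMIs per library and phase) were summed and tested with edgeR 4.0.16 (TMM, quasi-likelihood, library as block); genes of Seurat 5.3.0's phase lists were set aside. Within libraries, deviations of S and G1 sums correlated at 0.481 to 0.782, and both phases come from 1 library, so the block was kept. The mapping of r1 and r2 there to Mix and Primed cultures was not settled, and the contrast lies within libraries. Peaks had to overlap the start of the gene's canonical transcript in GENCODE version 44, which also gave the stop codons for the stem-loops. RefSeq synonyms were used to match older symbols, and 65 of 70 histone symbols matched. P-values measure the spread of the difference between S and G1 over the 8 libraries. That spread may be technical, and it also holds any effect of agent or culture on the difference.

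Named genes were the 6 markers, the highest and lowest ratios with 1 direction in r1 and r2 (10 against the pooled clusters, 5 against each of clusters 0, 6 and 7), and the highest level and the highest and lowest ratio of each list; CDCA5, CCND1's wells, CDK1, UBE2C, HIST1H2BD, HIST2H2BE, HIST1H4H, HIST1H4I, EGFR and the genes at the limits were added after their values were seen. Members and lists were chosen with earlier results of these data known. Alternatives were the replicates alone, UMIs per cell as scale, minimums of 5 and 50 CPM, S-called cells alone, each well or library left out, DESeq2 1.42.0, no block and S against G2M. The edgeR script was tested on simulated data.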

Additional observations from a re-analysis of the deposited data

Results flagged for a closer look

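MSH6, a mismatch repair gene, was above the pooled other clusters in all 4 r1 wells (ratio 1.22 in r1) and below them in all 4 r2 wells (ratio 0.826 in r2). The 2 replicates thus moved in opposite directions, and the difference between them was not tested. 72 named genes were checked for this pattern, but 20 of them had been chosen with 1 direction in r1 and r2, so the count says little about how often the replicates disagree. Of 17 values checked over the 8 wells of cluster 1, none had a well standing apart from the others, where chance alone would give about 1 in 20.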

How the results depend on the processing

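Against the pooled clusters, the 86 genes over a ratio of 2 became 39 in r2 alone, 153 with UMIs per cell and 50 with a minimum of 50 CPM, and the 7 under 0.5 became 4 in r2 alone, 2 with S-called cells and, with minimums of 5 and 50 CPM, 15 and 2. Against cluster 0, 103 over 2 became 61 (50 CPM), and 4 under 0.5 became 1 (UMIs per cell), 15 (5 CPM) and 1 (S-called cells). Against cluster 6, 104 over 2 became 238 with UMIs per cell, 196 (5 CPM) and 54 (50 CPM), and 78 under 0.5 became 31, 136 and 40 under the same settings. Against cluster 7, 57 over 2 became 95 (5 CPM) and 32 (50 CPM). The CPM minimum sets how many genes are tested, and UMIs per cell add the depth difference between clusters; the cause of the r2 change was not tested. The share of cluster 1 was 18.98% in r1, 24.5% in r2 and 16.4% of all cells. Leaving out 1 well at a time gave 73 to 109 and 6 to 7 genes against the pooled clusters, 95 to 110 and 3 to 4 against cluster 0, 93 to 114 and 71 to 81 against cluster 6, 55 to 60 and 68 to 71 against cluster 7, a share of 20.2% to 22.5% and an S share of 66.7% to 67.5%. Leaving out cells with a barcode in 2 wells (86 genes over 2) or wells with fewer than 50 cells of the cluster (88 genes), both chosen after seeing the data, moved none of these counts by 1.5 times. S-called cells alone could not be compared with clusters 6 and 7, which have none. Of 58 ratios of named genes past a limit, 1 of 1024 recomputed values turned: HIST1H2AC, 1.07 with S-called cells. Part of these genes were chosen for extreme ratios with 1 direction in r1 and r2, and values without 1 well reuse most cells. Few turns were thus likely beforehand.

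In the treatment experiment the count stayed at 57 to 57 without 1 library, and without the replicate block (library pairing S and G1) it was 57. S against G2M gave 32 higher and turned CBLB (0.27), CEBPD (0.70), H2AFX (-0.81), HIST1H1C (-0.16), HIST1H1E (-0.18), HIST1H4C (-0.16), HIST2H2AC (-0.19) and SPC25 (-0.79). HIST1H2AC lay between -0.12 and 0.044 without 1 library and turned without PI3Ki r2 (0.044). Among 286 further values, 4 lost their call: CEBPD, MGP and MMP1 without the block and MMP1 with DESeq2.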
